A study of Mus musculus with 2 samples.

Results

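The pyruvate dehydrogenase complex and the enzymes that switch it were examined as 10 genes. They are the 4 kinases Pdk1, Pdk2, Pdk3 and Pdk4, the 2 phosphatases Pdp1 and Pdp2, and the 4 complex subunits Pdha1, Pdhb, Dlat and Pdhx. Members were taken by gene symbol, as every probe set that the array's probe annotation gives to 1 of these genes alone, which yielded 18 of the 34945 probe sets with a single gene. The 10 genes stand among 18193 genes with such a probe set.

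RNA came from 3T3-L1, a mouse preadipocyte line that becomes fat cells after hormonal induction, and was hybridised to Affymetrix arrays, 1 array per group. Cells of one group received an siRNA directed at Phf21a (BHC80, a histone-reading subunit of the corepressor complex built around the demethylase LSD1), and cells of the other received the control siRNA siGL3. Both were induced with insulin, dexamethasone and 3-isobutyl-1-methylxanthine 24 h after transfection and harvested 24 h later, in medium with 25 mM glucose and 10% FBS. With 1 array per group no value has a replicate error, no test was run, and an effect of the siRNA itself cannot be told apart from loss of Phf21a. The labels do not say how many siRNA sequences were used against Phf21a, or whether the RNA of an array came from 1 culture or from several.

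The complex sits in the mitochondrial matrix and turns pyruvate, the end product of glycolysis, into acetyl-CoA. The kinases phosphorylate its alpha subunit and thereby switch it off, and the phosphatases remove the phosphate and switch it on again. In fat cells the acetyl-CoA made from glucose is a carbon source for fatty acid synthesis, so the balance of kinase and phosphatase is one of the points at which glucose is kept for storage or spared.

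Signals are MAS5 intensities on a linear scale. Detection required a signal of 51.3 or more, the median over both arrays, on either array, and 16 of the 18 probe sets met it, representing 9 of the 10 genes. Each gene is summarised by its brightest detected probe set. Log2 ratios run Phf21a siRNA over control siRNA, and each is given ± a local spread, the scatter of log2 ratios among the 1000 detected genes (for a single probe set, detected probe sets) nearest in signal. This spread comes from 1 array set against 1 array, includes true differences, and is not an error between cultures. Signals of different probe sets depend on their probes and are not compared with each other.

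On the arrays as a whole, Phf21a itself (Entrez gene 192285) had a signal of 306 on the Phf21a siRNA array, against 768 on the control array. Signals over all probe sets had medians of 49.8 on the Phf21a siRNA array and 53.2 on the control array. The ratio of 3′ to 5′ signal, a measure of RNA integrity, was 1.22 on the Phf21a siRNA array and 1.15 on the control array for beta-actin. For Gapdh it was 0.816 on the Phf21a siRNA array and 0.792 on the control array. Of 14 markers of preadipocytes and early fat cells on the array, 12 were detected, among them Pdgfra and Col1a1, while the late markers Adipoq (26.5 on the Phf21a siRNA array and 12.5 on the control array) and Cebpa (12.0 on the Phf21a siRNA array and 45.0 on the control array) were not. Among these 12, 3 passed 1.5-fold upward and 1 downward, and the median log2 ratio was -0.08. The shares over all detected genes were 15.2% upward and 13.9% downward. Dlk1, which keeps preadipocytes undifferentiated, was at -1.05 ± 0.29, the fatty acid binding protein Fabp4 at 0.74 ± 0.35 and the growth factor receptor Pdgfrb at 0.84 ± 0.42. Their other detected probe sets were at -1.78, 0.61 and 0.13. With the arrays scaled to poly-A RNA controls (described below), 0 of the 12 were upward and 8 downward. The shares over all detected genes were then 2.87% and 58.9%. Dlk1 was then at -1.77, Fabp4 at 0.02 and Pdgfrb at 0.11. Of 7 leukocyte markers 4 were detected, and the summed signal of the 7 was 1469 on the Phf21a siRNA array and 810 on the control array, with the defining gene Ptprc at no more than 12.2 on either. The 4 detected were all higher on the Phf21a siRNA array, 3 of them past 1.5-fold, with a median log2 ratio of 0.82. Under poly-A scaling 0 of the 4 passed 1.5-fold either way, 3 were above 0 and the median was 0.09. Csf1r, among those past 1.5-fold as deposited, was at 1.18 on its brightest probe set. Its other detected probe sets were at 0.22 and 0.18. None of 3 endothelial markers was detected. Of 3 epithelial markers 2 were, with Epcam at 79.5 on the Phf21a siRNA array and 146 on the control array and Krt8 near the detection limit. Of 4 muscle markers 2 were, with Des at 76.9 on the Phf21a siRNA array and 94.2 on the control array and Ckm at 22.5 on the Phf21a siRNA array and 55.5 on the control array. The part of differentiation state or of other cells in the results that follow was not tested, and in bulk RNA fewer cells of a type and less RNA per cell cannot be told apart.

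Of the 3 detected kinases 2 were past 1.5-fold, 1 in each direction. Pdk4 was 2.47-fold higher on the Phf21a siRNA array and Pdk1 was 1.72-fold lower. Pdk3 and every phosphatase and subunit gene differed by less than 1.5-fold, and Pdk2 was not detected. Of the 9 detected genes 1 was therefore at least 1.5-fold higher, where 15.2% of the 11301 detected genes were, and 1 was at least 1.5-fold lower, where 13.9% were. The other 7 lay in between, as did 70.9% of all detected genes, so as a count the group did not stand apart from the background. Its median log2 ratio was 0.02, beside 0.03 over all detected genes.

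Both outlying kinase genes are shown here by the 250 bases before the transcription start, because their log2 ratios differ most within the family. Sequences are RefSeq promoter windows of GRCm38.p6, written 5′ to 3′ in the direction of transcription, with each CpG dinucleotide in capitals. The Pdk4 window lies at chr6:5496279-5496528 on the minus strand. The Pdk1 window lies at chr2:71872974-71873223 on the plus strand.
Pdk4: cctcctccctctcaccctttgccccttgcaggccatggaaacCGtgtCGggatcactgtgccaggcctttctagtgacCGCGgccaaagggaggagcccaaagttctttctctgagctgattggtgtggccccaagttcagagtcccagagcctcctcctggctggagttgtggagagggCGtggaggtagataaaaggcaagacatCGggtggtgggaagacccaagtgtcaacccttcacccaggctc
Pdk1: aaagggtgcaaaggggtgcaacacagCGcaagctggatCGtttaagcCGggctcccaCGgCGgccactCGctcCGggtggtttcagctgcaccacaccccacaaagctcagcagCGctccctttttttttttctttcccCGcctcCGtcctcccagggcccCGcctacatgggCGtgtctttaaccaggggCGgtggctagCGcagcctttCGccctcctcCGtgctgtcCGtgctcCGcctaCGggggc

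The Pdk4 window held 6 CpG dinucleotides, equal to the median of 6 over all 32851 windows of that length, and the Pdk1 window held 19. Windows were on hand for 9 of the 10 genes, all but Pdp1. The other 7 held between 11 (Pdp2) and 29 (Pdk3) CpGs, so Pdk4 had the fewest of the 9. Its GC content of 58.8% was also the lowest of the 9, and the highest was 68.4% for Pdhx. The CpG count was chosen as a description after the sequences were seen. The transcription start used lay 9 bases inside the annotated gene for Pdk1 and 311 bases inside it for Pdhb. Pdk1 and Pdk2 had 2 windows each, of which 1 was used.

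Motifs of 3 factors known to act on Pdk genes were searched on both strands of these windows. AAGGTCA, the core site of estrogen-related receptors, was in none of the 9 windows and in 4.08% of all windows. GTAAACA, a forkhead motif, was in none of the 9 and in 3.17% of all. ACGTG, a form of the core of the hypoxia response element, was in the windows of Pdk2, Pdk3, Pdp2 and Pdhb, and in 16.6% of all windows. ACGTG contains a CpG, and the windows with it held 11 to 29 CpGs, beside a median of 6 over all windows. The share over all windows is thus not matched for CpG content. In Pdk2 and Pdp2 the motif lay within CACGTG, which reads the same on both strands. The Pdhb window lies inside the annotated gene. The Pdk4 and Pdk1 windows held none of the 3 motifs as searched, which says only that these letters are not within 250 bases of the start. GCGTG, the other form of the hypoxia core, was not searched and can be read in both printed windows.

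**Figure D1:**
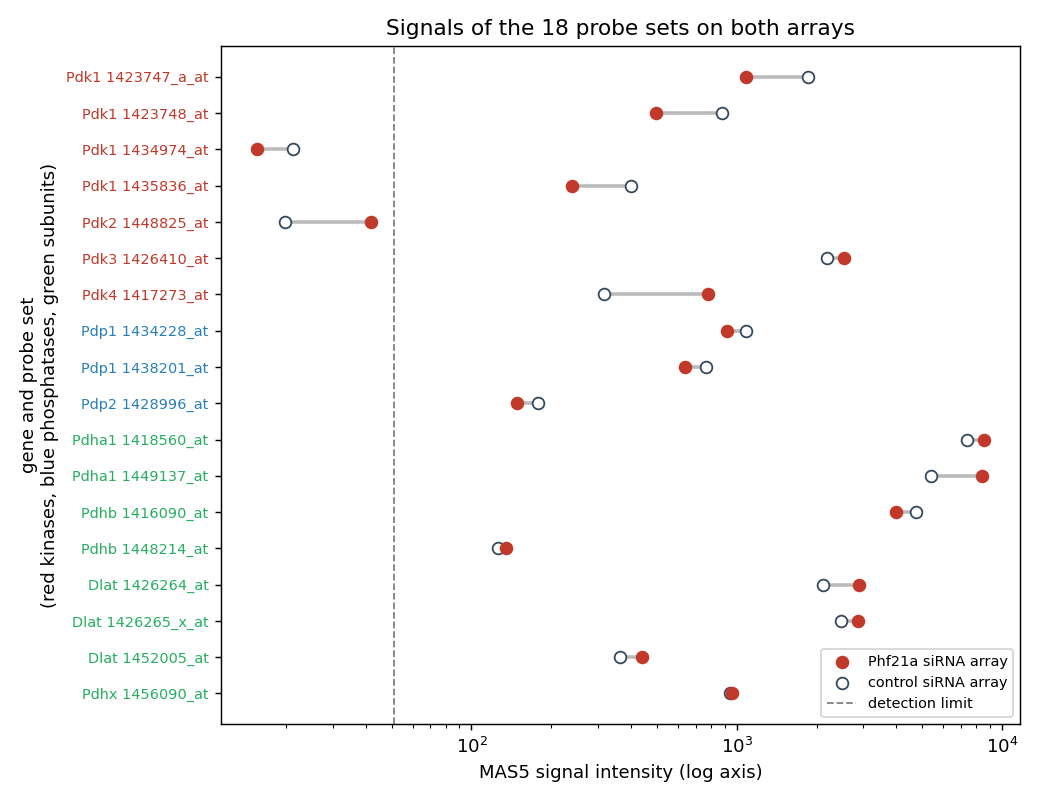
MAS5 signal on a log axis for each of the 18 probe sets, with filled points for the Phf21a siRNA array, open points for the control siRNA array and a dashed line at the detection limit of 51.3. Pdk4 shows the widest gap with the Phf21a siRNA array on the right, the 3 detected Pdk1 probe sets all have it on the left, and 2 probe sets lie under the limit on both arrays.

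Pdk4 (Entrez gene 27273, chromosome 6, 5483351 to 5496278, GRCm38.p6), the kinase induced by fasting and glucocorticoids, is read by 1 probe set. Probe set 1417273_at gave 778 on the Phf21a siRNA array, against 315 on the control array (log2 ratio 1.30 ± 0.51). Both signals were far above the detection limit. Among the 1000 detected genes nearest in signal, 15 including Pdk4 itself had a log2 ratio at least as high, and 5.72% of all detected genes were at least 2-fold higher. Both groups received dexamethasone, a glucocorticoid, so the comparison is between 2 induced states. No second probe set exists by which to repeat the reading.

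Pdk1 (Entrez gene 228026, chromosome 2, 71873215 to 71903858), the kinase best known as a target of hypoxia-inducible factor, is read by 4 probe sets. Probe set 1423747_a_at gave 1084 on the Phf21a siRNA array and 1864 on the control array (log2 ratio -0.78 ± 0.47). Probe set 1423748_at gave 497 on the Phf21a siRNA array and 882 on the control array (-0.83 ± 0.52). Probe set 1435836_at gave 239 on the Phf21a siRNA array and 400 on the control array (-0.74 ± 0.57). All 3 detected probe sets were thus lower on the Phf21a siRNA array, by 1.68-fold to 1.78-fold, and they differed among themselves by only 0.08 on the log2 scale. The last, 1434974_at, lay under the limit at 15.6 on the Phf21a siRNA array and 21.3 on the control array. Of the 2518 genes with 3 or more detected probe sets, 3.81% had all of them at least 1.5-fold lower, as Pdk1 did. The probe sets read the same 2 RNA samples and are not replicates. By its brightest probe set, 53 of the 1000 detected genes nearest in signal, Pdk1 itself included, were at least as low. These shares rest on unlike cutoffs and sets of genes and are not ranked against each other.

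Pdk3 (Entrez gene 236900, chromosome X) encodes a further kinase of the family. Its probe set 1426410_at gave 2546 on the Phf21a siRNA array, against 2188 on the control array (0.22 ± 0.42), a difference within the local spread. Pdk2 (Entrez gene 18604, chromosome 11) encodes the kinase found in most tissues. Its only probe set, 1448825_at, gave 41.9 on the Phf21a siRNA array and 19.8 on the control array, both under the detection limit, so no fold is given. The 3 detected kinases together spanned a log2 difference of 2.09 between Pdk4 and Pdk1, which is 4.25-fold. The root of the summed squares of their local spreads was 0.69. Pdk4 and Pdk1 are the highest and lowest of all detected members, so a wide gap is partly set by that choice and is no test. A difference between 2 genes on the same arrays does not move with how the arrays are scaled to each other as a whole. The median of the 3 detected kinases was 0.22.

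**Figure D2:**
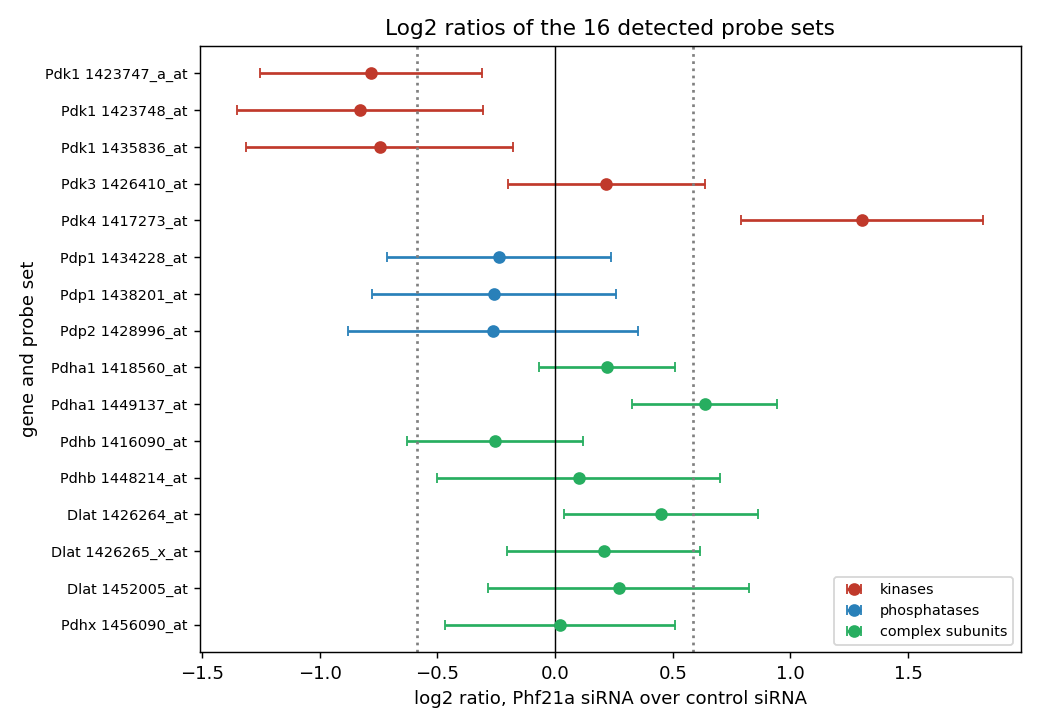
Log2 ratio (Phf21a siRNA over control siRNA) of each of the 16 detected probe sets, coloured by role, with bars for the local spread among the 1000 detected probe sets nearest in signal and dotted lines at 1.5-fold. Pdk4 lies to the right of the dotted lines and the 3 Pdk1 probe sets to the left, while all phosphatase and subunit probe sets but 1449137_at of Pdha1 lie between them.

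The phosphatase genes were close to each other and slightly lower. Pdp1 (Entrez gene 381511, chromosome 4), the calcium-stimulated phosphatase, gave 922 on the Phf21a siRNA array and 1087 on the control array with probe set 1434228_at (-0.24 ± 0.47). Its second probe set, 1438201_at, gave 640 on the Phf21a siRNA array and 767 on the control array (-0.26 ± 0.52). Pdp2 (Entrez gene 382051, chromosome 8), the second catalytic phosphatase, gave 149 on the Phf21a siRNA array, against 179 on the control array (-0.26 ± 0.63). All 3 readings lay below 0 and within their local spreads, and none reached 1.5-fold. The median of both genes was -0.25.

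The subunit genes showed small differences of mixed sign. Pdha1 (Entrez gene 18597, chromosome X) encodes the alpha subunit of the decarboxylase, on which the kinases act. Its probe set 1418560_at gave 8575 on the Phf21a siRNA array and 7365 on the control array (0.22 ± 0.29). The other, 1449137_at, gave 8399 on the Phf21a siRNA array and 5405 on the control array (0.64 ± 0.31). So 1 of its 2 probe sets was past 1.5-fold, at 1.55-fold, and the pair disagreed by 0.42 on the log2 scale.

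Pdhb (Entrez gene 68263, chromosome 14) encodes the beta subunit of the same enzyme. Probe set 1416090_at gave 3974 on the Phf21a siRNA array and 4747 on the control array (-0.26 ± 0.37). Its other probe set, 1448214_at, gave 135 on the Phf21a siRNA array and 126 on the control array (0.10 ± 0.60). The probe sets differed in sign, and each was within its local spread. The alpha and beta subunits work as partners in 1 tetramer, and their brightest probe sets lay on opposite sides of 0.

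Dlat (Entrez gene 235339, chromosome 9) encodes the acetyltransferase that forms the core of the complex. Probe set 1426264_at gave 2894 on the Phf21a siRNA array and 2119 on the control array (0.45 ± 0.43). For 1426265_x_at, whose suffix marks probes that may bind other transcripts, the signals were 2856 on the Phf21a siRNA array and 2476 on the control array (0.21 ± 0.41). Probe set 1452005_at gave 440 on the Phf21a siRNA array and 365 on the control array (0.27 ± 0.55). All 3 were higher on the Phf21a siRNA array by less than 1.5-fold. Pdhx (Entrez gene 27402, chromosome 2), which encodes the protein that tethers the dihydrolipoamide dehydrogenase to that core, gave 960 on the Phf21a siRNA array and 946 on the control array (0.02 ± 0.47). The 4 subunit genes had a median of 0.12 and ranged over 0.71 on the log2 scale.

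In order of log2 ratio the 9 detected genes ran Pdk4, Dlat, Pdha1, Pdk3, Pdhx, Pdp1, Pdhb, Pdp2 and Pdk1. The step between Pdk4 and Dlat was 0.85, larger than their combined local spread of 0.67. The step between Pdp2 and Pdk1 was 0.52, smaller than the combined 0.78. No other pair of neighbours differed by more than 0.26. From Dlat down to Pdk1, then, no gene was resolved from its next neighbour, which does not speak for pairs further apart. The genes were sorted by these same values, so the steps are a description and not a test.

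**Figure D3:**
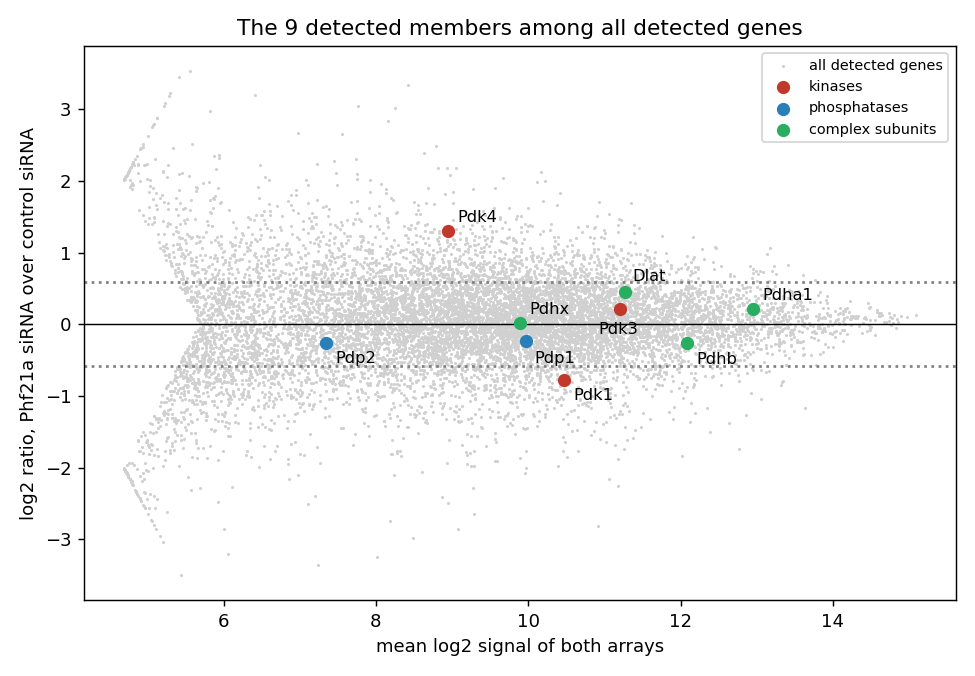
Log2 ratio (Phf21a siRNA over control siRNA) against mean log2 signal for the 11301 detected genes in grey, with the 9 detected members coloured by role and dotted lines at 1.5-fold. Pdk4 and Pdk1 lie outside the dotted lines on opposite sides, and the other 7 lie within the dense band around 0.

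These directions rest on the scaling of the arrays to an equal trimmed mean. Scaling to the 24 detected probe sets of poly-A RNA controls, which were higher on the Phf21a siRNA array by a median log2 ratio of 0.73 (0.44 to 0.95), moved the median of all genes to -0.70. Pdk4 was then at 0.58, just under 1.5-fold, and was the only member above 0. Pdk1 was at -1.51. Scaling to the 18 detected probe sets of hybridisation controls, higher by a median of 0.23, left Pdk4 at 1.08 and Pdk1 at -1.01, with Dlat the only other member above 0. Under median centring Pdhx was below 0. So the sign of Pdk3, Pdha1, Dlat and Pdhx turns with the scaling, while Pdk4 was above 0 and Pdk1 below 0 in each of the 6 scalings shown. Why the control signals differed between the arrays was not tested.

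**Figure D4:**
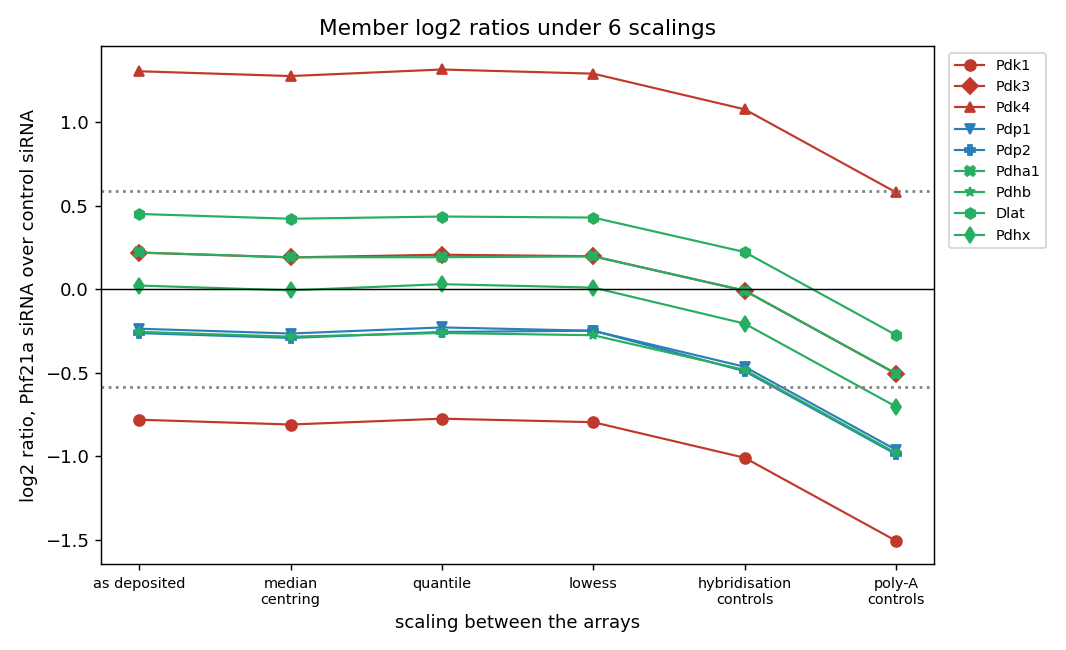
Log2 ratio (Phf21a siRNA over control siRNA) of the 9 detected members under 6 ways of scaling the arrays to each other, with dotted lines at 1.5-fold. The lines run parallel, since scaling moves all genes nearly alike, with Pdk4 above 0 and Pdk1 below 0 throughout.

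Enzymes around the complex were mostly within 1.5-fold with the arrays scaled as deposited, but not under poly-A scaling, which moved 58.9% of all detected genes past 1.5-fold downward. Of the 10 genes on the array that bring pyruvate in or use it otherwise, 9 were detected, with 2 past 1.5-fold upward, 0 downward and a median log2 ratio of 0.12. The shares over all detected genes were 15.2% upward and 13.9% downward. Under poly-A scaling 1 of the 9 was upward and 6 downward, where 2.87% and 58.9% of all detected genes were. Gpt, which exchanges pyruvate and alanine, gave 238 on the Phf21a siRNA array and 122 on the control array (0.96 ± 0.61). Ldhd, a mitochondrial D-lactate dehydrogenase, gave 77.4 on the Phf21a siRNA array and 17.6 on the control array, the second under the detection limit, and its log2 ratio was 0.59 with that signal raised to the limit. Mpc1, a subunit of the mitochondrial pyruvate carrier, was at 0.12 ± 0.43, and Ldha, which makes lactate, at -0.31 ± 0.29, both named although they did not pass 1.5-fold.

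Dld, the dihydrolipoamide dehydrogenase shared with the related complexes, was at -0.14 ± 0.42, and Pdpr, the regulator of the phosphatase, at 0.04 ± 0.51, both named for their part in the complex. In the list with the genes that make and attach lipoate, the cofactor of the Dlat core, 8 of 9 were detected, with 0 past 1.5-fold upward, 2 downward and a median of -0.08. The shares over all detected genes were 15.2% upward and 13.9% downward. Under poly-A scaling 0 of the 8 were upward and 6 downward, where 2.87% and 58.9% of all detected genes were. Mcat, an enzyme of mitochondrial fatty acid synthesis from which lipoate is made, gave 253 on the Phf21a siRNA array, against 511 on the control array (-1.02 ± 0.54). Lias, the lipoate synthase, gave 2676 on the Phf21a siRNA array and 4014 on the control array (-0.59 ± 0.39), just past 1.5-fold, and its other detected probe set was at -0.61.

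Related dehydrogenase complexes of 2-oxoacids share the design of pyruvate dehydrogenase. Of 8 such genes on the array, all detected, 1 passed 1.5-fold upward and 1 downward, and the median was -0.23. The shares over all detected genes were 15.2% upward and 13.9% downward. Under poly-A scaling 0 of the 8 were upward and 7 downward, where 2.87% and 58.9% of all detected genes were. Dhtkd1, the 2-oxoadipate dehydrogenase, gave 279 on the Phf21a siRNA array and 144 on the control array (0.96 ± 0.61). Dbt, the core of the branched-chain complex, gave 86.2 on the Phf21a siRNA array, against 192 on the control array (-1.16 ± 0.70). Bckdk, the branched-chain counterpart of the Pdk kinases, was at -0.01 ± 0.50 and is named as their relative.

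Factors known to act on Pdk genes were also read. Of 14 on the array 12 were detected, 4 passed 1.5-fold upward and 0 downward, and the median was 0.23. The shares over all detected genes were 15.2% upward and 13.9% downward. Under poly-A scaling 1 of the 12 was upward and 4 downward with a median of -0.50, where 2.87% and 58.9% of all detected genes were. Under hybridisation scaling 2 were upward and 1 downward with a median of 0.00062, where 8.93% and 23.5% of all detected genes were. Ppargc1a, a coactivator of oxidative genes that induces Pdk4, gave 324 on the Phf21a siRNA array and 68.6 on the control array (2.24 ± 0.64). Foxo3, a forkhead factor, gave 1358 on the Phf21a siRNA array and 603 on the control array (1.17 ± 0.49). The other detected Foxo3 probe sets were at 0.62 and 1.02, the latter with its control signal under the detection limit. Esrra, an estrogen-related receptor, was at 0.70 ± 0.53 and Pparg at 0.67 ± 0.53. Under poly-A scaling Ppargc1a was at 1.52 and Foxo3 at 0.45, while Esrra was at -0.03 and Pparg at -0.06. Hif1a, the hypoxia-inducible factor known to induce Pdk1 and named after its values were seen, was at -0.26 ± 0.29 on its brightest probe set. Its other detected probe sets disagreed, at -0.95, -0.53 and 0.73, the last with its control signal under the detection limit. Whether these factors bear on Pdk4 or Pdk1 was not tested.

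**Figure D5:**
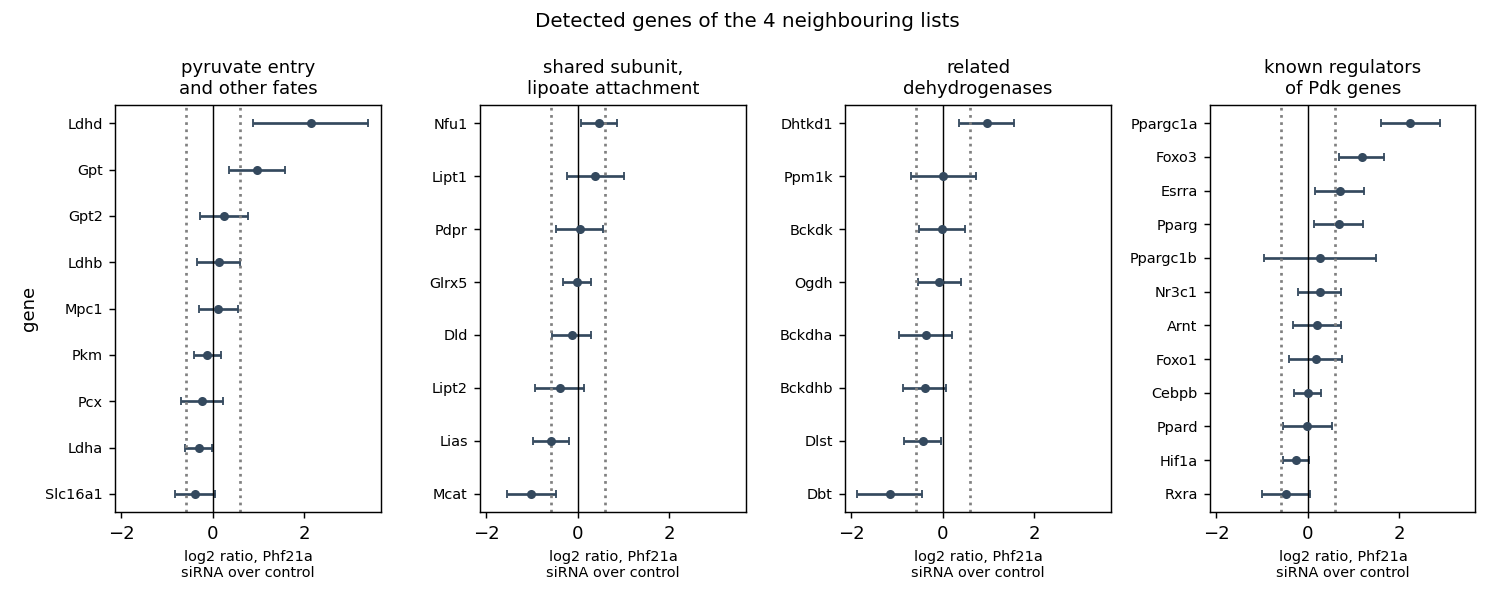
Log2 ratio (Phf21a siRNA over control siRNA) of the detected genes of 4 lists around the complex, sorted within each list, with bars for the local spread and dotted lines at 1.5-fold. Genes past the dotted lines number 2, 2, 2 and 4 from left to right, all higher in the first and last list, both lower in the second, and 1 each way in the third.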

How the data were processed

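Total RNA of each group was measured on 1 Affymetrix array. Per the submitters' processing notes, the authors computed the deposited intensity values with MAS5, with the version not given in the sources used here. Trimmed by 2% at each end, the mean signal rounds to 500 on both arrays. MAS5 subtracts mismatch signal, which leaves low values noisy. With intensities alone, the number of arrays limits the precision.

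Gene symbols came from the platform annotation, and 34741 of 34945 single-gene probe sets matched a RefSeq gene by Entrez number. Signals were raised to a floor of 12.9 (the pooled 25th percentile) before log2. For a gene, probe sets ending in _x_at were left out where another was detected. The local spread is 1/2 of the gap from the 16th to the 84th percentile. The calculation of log2 ratio and local spread was tested on simulated data with a single probe set per gene and the same noise at all signals. That simulation did not try the floor, the detection limit or the choice of probe set. Named genes are all members, Phf21a, and up to 4 genes of each neighbouring list past 1.5-fold, with exceptions said where they occur. Members, lists and alternatives were chosen with earlier results of these data known. Python 3.11.15, numpy 2.4.6, pandas 2.3.3 and statsmodels 0.14.6 were used.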

Additional observations from a re-analysis of the deposited data

How the results depend on the processing

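Beside the scaling as deposited, 11 alternatives of scaling, floor, probe set choice and detection limit were run, and 2 other cutoffs. Under poly-A control scaling 0 members passed 1.5-fold upward and 5 downward, where 2.87% and 58.9% of all detected genes did, and the medians were -0.51 for the kinases, -0.98 for the phosphatases and -0.60 for the subunits; the shift of all genes by -0.73 sets these values. With no detection limit 2 members were higher, the dim Pdk2 being the second, where 14.2% of all genes were. At 2-fold 0 members were lower (5.47% of detected genes), and at 3-fold 0 were higher (1.68%) and 0 lower (1.87%). Pdk4 ranged from 0.58 to 1.32 and Pdk1 from -1.51 to -0.78 over the 11 alternatives. The log2 difference between them ranged from 2.08 to 2.13. No paired analysis was possible because each group holds 1 array, and no replicate could be left out.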
